A study of Arabidopsis thaliana with 8 samples.

Results

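The 10 genes described here were taken as sugar starvation genes of Arabidopsis thaliana, most of which are known to rise when sugar runs short, and their signal was lower in treated than in untreated seedlings. They are AKINBETA1 (AT5G21170), ATL8 (AT1G76410), AT1G23390, AT5G57655, AT2G32150, AT3G15450, AT4G27450, AT2G20670, AT1G33055 and AT4G10910. The genes were chosen by their lower signal in treated than in uninduced seedlings on these same arrays, so every comparison of them with the untreated seedlings is a description with its error, and the counts past a threshold given for it are no evidence of a fall. Each was read through a probe set that the platform annotation assigns to it alone. All 10 genes had 1 such probe set, out of 13513 single-gene probe sets for 13350 genes.

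The seedlings were 8 days old and of the accession Ws-0, and RNA of whole seedlings was measured on Affymetrix ATH1 arrays. There were 8 arrays in 4 groups of 2 biological replicates. The uninduced line carried 35S:LEC2-GR and received no treatment (0 h), and seedlings of the same transgenic genotype were sampled after 1 h and after 4 h with dexamethasone. The fourth group was wild-type Ws-0, without the transgene, after 4 h with dexamethasone. The 35S promoter drives the transgene in most cells of the plant, not only where LEAFY COTYLEDON2 (LEC2), a transcription factor of the embryo, normally acts. The glucocorticoid receptor part of the fusion holds it inactive until dexamethasone is given. No untreated wild type and no wild type at 1 h were analysed here, so wild type at 4 h differs from the uninduced line in treatment, time and transgene, which cannot be told apart. No probe set carried the name of LEC2, so the group labels could not be checked against the transgene.

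When sugar or energy is short, plant cells activate SnRK1, the plant counterpart of yeast SNF1 and animal AMPK, a kinase made of a catalytic alpha subunit with regulatory beta and gamma subunits. Active SnRK1 raises genes that break down reserves, amino acids and cell components, and it lowers genes of growth and synthesis. Sugar supply or light brings the starvation transcripts down again, and many of these transcripts follow the day and night cycle of carbon reserves. Several of the 10 genes are widely used as markers of this state, and AT1G33055 and AT4G27450 are also known to rise when oxygen is short.

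Signals are MAS5 intensities on a linear scale, and all arrays had been scaled to a common trimmed mean of 500.05. Array medians lay between 170 and 191, and replicates correlated at 0.969 to 0.980 on the log2 scale. Differences are on the scale of log2(signal + 45), where 45 is the 25th percentile of all values, which understates the change of dim genes. A sign of RNA quality, the GAPDH control's 3′ signal over its 5′ signal, ranged from 1.59 (4 h replicate 2) to 3.37 (1 h replicate 1). The same ratio of the actin control was higher on every array, from 6.90 (uninduced replicate 1) to 13.4 (uninduced replicate 2). The part of RNA quality in the results was not tested. No instrument record states a fluidics run. From scan order and filled fields of the records, wild type and the uninduced line were inferred to share a run. The 1 h and 4 h arrays were inferred to share another. The differences of wild type from the uninduced line therefore lie within one inferred run, while those in the line lie across runs. The record of 4 h replicate 2 also noted raised background over a portion of the scan. Precision is limited throughout by having 2 arrays in a group.

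All 10 genes were lower in each treated group than in the uninduced line, and no treated array reached the level of an uninduced array. A gap between groups in either direction, up or down, was found for 66.8% of all tested probe sets at 4 h, 54.1% at 1 h and 66.4% for wild type. The share with a downward gap alone was not counted. At 4 h in the line, 10 of 10 lay past the threshold of the fit (an adjusted p of 0.05) in the downward direction, where 16.8% of all 15026 probe sets tested did so. At 1 h, 9 of 10 did, against 7.16% of all, and ATL8 was the exception. In wild type at 4 h, 10 of 10 did, against 14.3% of all, with ATL8 only just past the threshold (limma adjusted p = 0.0486). These counts follow from the choice of the genes and carry no weight of their own. The median log2 difference of the 10 from the uninduced line was -2.76 at 1 h, -3.53 at 4 h and, for wild type, -3.65, beside medians over all tested probe sets of 0.00, -0.01 and 0.03. In whole seedlings, fewer cells of a type and less RNA per cell cannot be told apart.

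**Figure D1:**
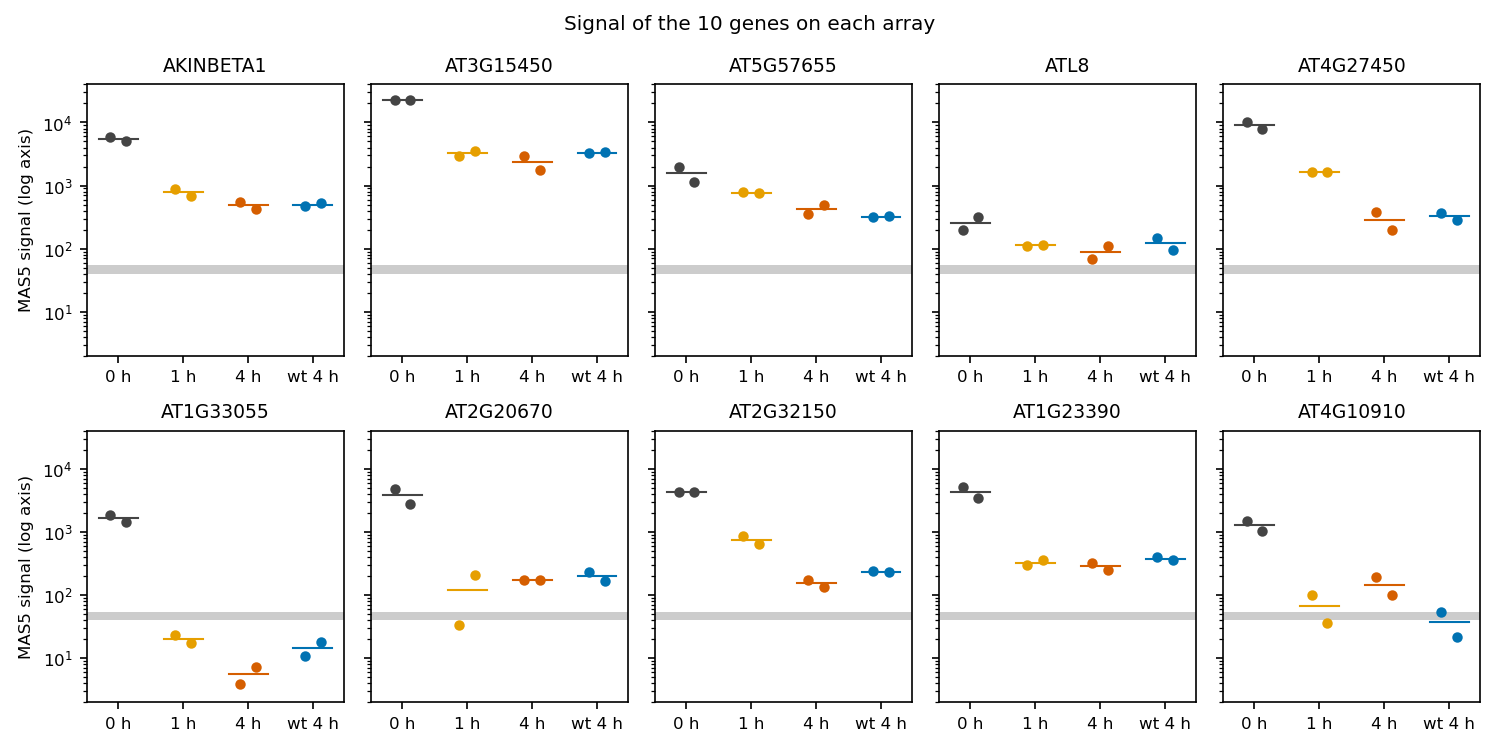
MAS5 signal (log axis) of each of the 10 genes on the 8 arrays, with 1 point per array and the groups on the x axis as the uninduced line (0 h), the line at 1 h and 4 h, and wild type at 4 h. In every panel both uninduced points lie above all 6 treated points, and AT3G15450 is at least 1745 on every array while AT1G33055 is at most 23.1 on the treated arrays.

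AKINBETA1 encodes a regulatory beta subunit of SnRK1 itself. Its signal was 5878 and 5121 in the uninduced line, 876 and 687 at 1 h, 554 and 431 at 4 h, and 480 and 524 in wild type. The 1 h arrays lay between the uninduced arrays and all 4 arrays of the 4 h time point, and the line and wild type overlapped at 4 h. The log2 difference from the uninduced line was -2.75 at 1 h, -3.37 at 4 h and -3.34 for wild type, each with an SE of 0.17. At 4 h the line held 8.95% of the uninduced signal and wild type 9.12%. Even so, the gene stayed in the upper part of each array at 4 h, at percentiles from 69.3 to 74.2.

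Of 9 other subunits and activating kinases listed, 2 had a tested probe set of their own, and neither passed in any of the 5 comparisons (limma). AKINBETA2 (AT4G16360), another beta subunit, had mean signals of 583 ± 25.9 (SD, n = 2) in the uninduced line, 663 ± 99.2 at 1 h, 697 ± 44.8 at 4 h and 688 ± 136 for wild type. Its 4 h difference from the uninduced line was 0.24 on the log2 scale, with a 95% interval from -0.14 to 0.62. AKINBETA3 (AT2G28060), a plant-type beta subunit, differed by -0.33 (interval -0.71 to 0.05). Both intervals lie well above the fall of AKINBETA1.

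ATL8 and AT1G23390 encode proteins of the ubiquitin system. ATL8 is a RING-type ubiquitin ligase of the ATL family. Its signal was 196 and 315 in the uninduced line, 111 and 115 at 1 h, 67.6 and 110 at 4 h, and 150 and 93.7 in wild type. The wild-type arrays lay on either side of the 1 h arrays, and all treated arrays were below the uninduced ones. ATL8 was the dimmest of the 10 before treatment, at percentiles 52.8 and 62.7, and its fall was the smallest on the log2 scale used. As a share of uninduced signal, AT5G57655 kept more at 1 h, 49.7% against 44.2% for ATL8. The log2 difference was -0.90 at 1 h, -1.16 at 4 h and -0.84 for wild type, each with an SE of 0.31. Without uninduced replicate 2 the 4 h difference was -0.87, and without 4 h replicate 1 it was -0.93. The difference of wild type was -0.55 without uninduced replicate 2.

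AT1G23390, an F-box protein with Kelch repeats that targets chalcone synthase, the entry enzyme of flavonoid synthesis, for breakdown, was low from 1 h on. Its signal was 5133 and 3511 in the uninduced line, 304 and 355 at 1 h, 325 and 252 at 4 h, and 397 and 357 in wild type. The 1 h and 4 h arrays of the line overlapped. Its log2 difference was -3.52 at 1 h, -3.69 at 4 h and -3.35 for wild type, each with an SE of 0.20. At 1 h it had covered 95.4% of its 4 h fall on the log2 scale.

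A pair of genes encode proteins of enzyme families. AT5G57655 belongs to the xylose isomerase family. Its signal was 1989 and 1133 in the uninduced line, 795 and 758 at 1 h, 351 and 486 at 4 h, and 316 and 330 in wild type. The treated arrays fell in steps, with 1 h arrays between the uninduced and the 4 h arrays. Against the uninduced line, its log2 differences were -0.91 at 1 h, -1.76 at 4 h and -2.07 for wild type, each with an SE of 0.22, so about 26.8% of the uninduced signal was left in the line at 4 h. The uninduced replicates were far apart, and without replicate 1 the 1 h difference was -0.52.

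AT2G32150 encodes a haloacid dehalogenase-like hydrolase. Its signal was 4351 and 4322 in the uninduced line, 872 and 645 at 1 h, 177 and 133 at 4 h, and 238 and 229 in wild type. No pair of groups overlapped, and the uninduced replicates were nearly equal. In log2 units it differed by -2.46 at 1 h, -4.46 at 4 h and -3.98 for wild type, each with an SE of 0.18. Its signal at 4 h in the line was 3.57% of that in the uninduced line.

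AT3G15450 and AT4G27450 encode proteins of the aluminium-induced family with YGL and LRDR motifs. AT3G15450 was by far the brightest of the 10, with signals of 22544 and 22468 in the uninduced line. It showed 2985 and 3556 at 1 h, 2987 and 1745 at 4 h, and 3256 and 3422 in wild type. The 1 h, 4 h and wild-type arrays lay close together apart from the lower 4 h replicate 2. The log2 difference was -2.77 at 1 h, -3.28 at 4 h and -2.74 for wild type, each with an SE of 0.19. Its lowest treated array still stood at percentile 91.4, so for this gene the data go against the working description "shut off": it fell to 10.5% of a very high signal and stayed among the brightest probe sets.

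AT4G27450 started at 10334 and 8014 in the uninduced line. It showed 1659 and 1651 at 1 h, 376 and 196 at 4 h, and 362 and 286 in wild type. No treated array overlapped the uninduced arrays, and the 1 h arrays stood clear of all arrays at 4 h. Against the uninduced line, its log2 differences were -2.43 at 1 h, -4.84 at 4 h and -4.64 for wild type, each with an SE of 0.22. The line at 4 h held 3.12% of the uninduced signal, and the 2 arrays stood at percentiles 65.8 and 51.9.

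AT2G20670 encodes a protein of the DUF506 family, whose biochemical role is not settled. Its signal was 4841 and 2824 in the uninduced line, 33.3 and 212 at 1 h, 175 and 177 at 4 h, and 232 and 168 in wild type. The 1 h replicates were far apart and enclosed both 4 h arrays of the line. In log2 units it differed by -4.72 at 1 h, -4.08 at 4 h and -3.95 for wild type, each with an SE of 0.39. The value at 1 h leaned on 1 h replicate 1, and without it the 1 h difference was -3.87.

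AT1G33055 and AT4G10910 encode proteins without a settled role. AT1G33055 had signals of 1896 and 1465 in the uninduced line, 23.1 and 17.5 at 1 h, 3.9 and 7.3 at 4 h, and 10.8 and 18.1 in wild type. All 6 treated arrays were below the 25th percentile of their own array, from percentile 5.46 to 16.2, and with no detection calls in the table these signals cannot be separated from background. Its log2 difference was -4.71 at 1 h, -5.08 at 4 h and -4.85 for wild type, each with an SE of 0.32. Its depth is set mainly by the pseudocount: the 4 h difference was -8.03 with a pseudocount of 1 and -3.32 with 180. It is the gene of the 10 for which "shut off" describes the signal most closely.

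AT4G10910 had signals of 1509 and 1044 in the uninduced line, 101 and 35.7 at 1 h, 196 and 99.0 at 4 h, and 53.7 and 21.7 in wild type. The 1 h and 4 h arrays of the line overlapped, whereas both wild-type arrays were below both 4 h arrays of the line. Against the uninduced line, its log2 differences were -3.58 at 1 h, -2.80 at 4 h and -4.00 for wild type, each with an SE of 0.34. It exceeded the filter on low values on 1 treated array and AT1G33055 on 0, so both entered the tests only because of their uninduced signal, while the other 8 of the 10 would have passed on the treated arrays alone.

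**Figure D2:**
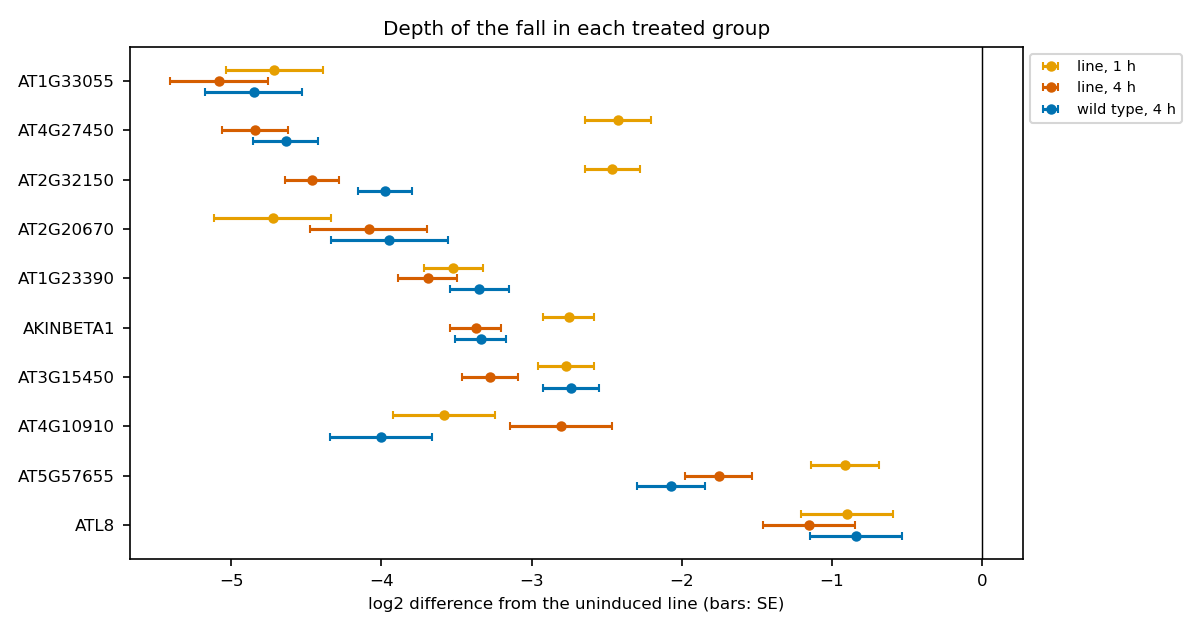
Log2 difference from the uninduced line (x axis, bars show 1 SE) for each of the 10 genes in the line at 1 h, the line at 4 h and wild type at 4 h. AT4G27450 and AT2G32150 show the widest gap between 1 h (-2.43 and -2.46) and 4 h (-4.84 and -4.46), and ATL8 lies closest to 0.

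The share of the 4 h fall that was reached at 1 h ran from 50.1% to 128% among the genes. At 1 h, AT4G27450 had covered 50.1%, AT5G57655 52.1% and AT2G32150 55.2% of the log2 fall seen at 4 h. ATL8, AKINBETA1 and AT3G15450 had covered 77.8%, 81.6% and 84.6%, and AT1G33055 and AT1G23390 92.8% and 95.4%. AT2G20670 and AT4G10910 had a lower mean at 1 h than at 4 h, at 116% and 128%. Over the alternative analyses AT4G27450 ranged from 46.3% to 54.7%, AT5G57655 from 38.2% to 60.9% and AT2G32150 from 50.6% to 60.6%. AKINBETA1 ranged from 76.7% to 86.5% and AT1G23390 from 91.4% to 99.7%. The ranges of ATL8 (64.9% to 97.1%) and AT3G15450 (75.8% to 95.7%) overlapped that of AT1G23390, so the order of these genes was not resolved. All of these ranges come from the same 8 arrays and are no measure of sampling error. AT2G20670 ranged from 94.7% to 137%. The share for AT1G33055, from 78.5% to 96.7%, rests on signals below the 25th percentile. A share of this kind uses 2 time points and says nothing of the course between them.

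The line at 4 h was set against the line at 1 h to describe whether the genes went on falling after the first hour. The arrays of both groups also entered the comparisons that chose the genes, so the counts and p-values here are a description. Both groups lie in the same inferred fluidics run. In the limma fit, 4 of 10 genes were lower at 4 h, where 9.34% of all tested probe sets were, and 0 were higher, where 10.3% were. At an unadjusted p under 0.05 the counts were 5 lower and 1 higher. All 4 are among the 8 genes that passed the filter on the treated arrays alone. The median of the 10 was -0.44.

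AT4G27450, of the YGL and LRDR family, fell by 2.42 on the log2 scale (SE 0.22, limma adjusted p = 3.78e-06), from 1655 ± 5.44 (SD, n = 2) to 286 ± 128. The hydrolase gene AT2G32150 decreased by 2.00 (SE 0.18, limma adjusted p = 3.78e-06), from 758 ± 161 to 155 ± 30.7. For both genes the 2 arrays at 4 h were below both arrays at 1 h, and both calls held in 14 of 14 alternative analyses. The calls of the other two genes were less firm. AT5G57655 fell by 0.84 (SE 0.22, limma adjusted p = 0.015), and the call was lost without 1 h replicate 1 (adjusted p = 0.0785) or 4 h replicate 1 (adjusted p = 0.149). AKINBETA1 fell by 0.62 (SE 0.17, limma adjusted p = 0.0173), and its call was lost without 1 h replicate 1 (0.153), without 4 h replicate 2 (0.165) or with only both groups in the fit (0.0506).

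The other 6 genes did not pass. AT3G15450 differed by -0.50 (95% interval -0.90 to -0.11, limma adjusted p = 0.0714). It passed without 4 h replicate 1, at -0.88 (limma adjusted p = 0.00266), and stood at -0.12 without 4 h replicate 2. ATL8 differed by -0.26 (-0.91 to 0.40) and AT1G23390 by -0.17 (-0.59 to 0.25). The interval of ATL8 leaves room for a further fall as large as that of AT5G57655. For AT1G23390 the interval ends above the falls of AT4G27450 and AT2G32150. AT2G20670 differed by 0.64 (-0.19 to 1.47, adjusted p = 0.289) and AT4G10910 by 0.78 (0.05 to 1.50, adjusted p = 0.13). AT1G33055 was below the 25th percentile on all arrays of both groups, so no difference between them can be read. AT2G20670 moved with single 1 h arrays, since it was higher at 4 h by 1.50 without 1 h replicate 2 (adjusted p = 0.00277, limma) and differed by -0.22 without 1 h replicate 1.

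**Figure D3:**
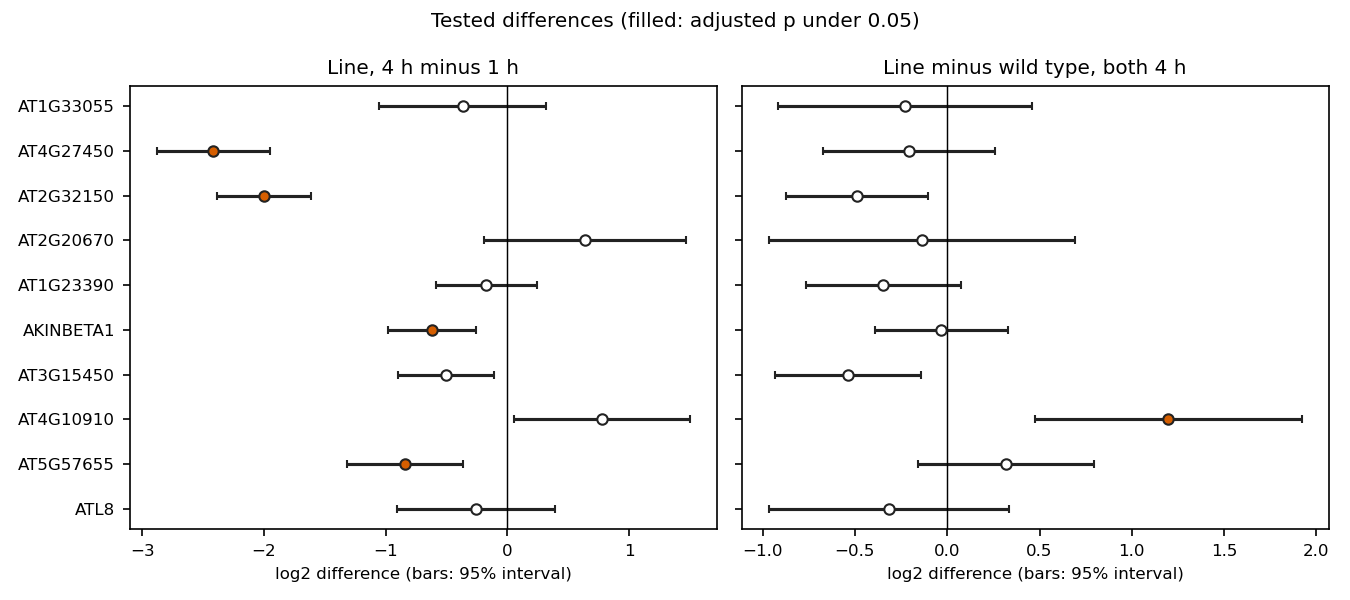
Log2 differences of the 10 genes (x axis, bars show 95% intervals) between the line at 4 h and wild type at 4 h and between the line at 4 h and the line at 1 h, with filled points for an adjusted p under 0.05. AT4G27450 (-2.42) and AT2G32150 (-2.00) stand apart in the comparison of 4 h with 1 h, and AT4G10910 (1.20) is the single filled point in the comparison with wild type, although it and AT1G33055 were tested only because of their uninduced signal.

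The comparison of the line with wild type, both after 4 h of dexamethasone, describes whether the genes lay at another level in the line. Without untreated wild type, a difference present before treatment cannot be told apart from one that followed induction. The comparison shares its arrays with those that chose the genes, so its counts and p-values are likewise a description. Its groups lie in different inferred runs. In the limma fit 1 of 10 genes passed, where 6.63% of all tested probe sets did, which is 1 higher (3.42% of all) and 0 lower (3.21% of all). At an unadjusted p under 0.05 there were 1 higher and 2 lower. The median of the 10 was -0.22.

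The gene past the threshold was AT4G10910, which entered the test only through its uninduced arrays and was dim in both groups compared, at percentiles 51.8 and 38.4 in the line and 26.6 and 17.0 in wild type, so little can be read from its call. It had a signal of 147 ± 68.4 (SD, n = 2) in the line and 37.7 ± 22.6 in wild type. The log2 difference was 1.20 (SE 0.34, 95% interval 0.48 to 1.92, limma adjusted p = 0.0464), and the call held in 6 of the 13 alternatives in which it was tested (adjusted p from 0.00743 to 0.369). The dimmer of the wild-type arrays was below the 25th percentile, and the difference was 1.99 with a pseudocount of 1 and 0.58 with 180. In the same comparison 3 of 4 tested root-enriched genes were lower in the line, where 3.21% of all tested probe sets were. The median of the 4 was -0.70. The remaining gene, AT4G30170, leaned the other way, at 0.58 (interval 0.21 to 0.94, limma adjusted p = 0.057). The part of the root-enriched genes in the result was not tested.

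The other 9 genes did not pass. AT1G33055 was below the 25th percentile on all 4 arrays compared, so no difference can be read for it. AKINBETA1 was the tightest, at -0.03 (-0.39 to 0.33), and AT4G27450 differed by -0.21 (-0.67 to 0.26). AT2G32150 (-0.49, interval -0.87 to -0.10, limma adjusted p = 0.149) and AT3G15450 (-0.54, -0.93 to -0.14, limma adjusted p = 0.113) leaned to a lower level in the line without passing. AT3G15450 passed when 4 h replicate 1 was left out, at -0.92 (limma adjusted p = 0.00379). AT1G23390 differed by -0.35 (-0.76 to 0.07) and ATL8 by -0.32 (-0.97 to 0.34). AT2G20670 differed by -0.14 (-0.96 to 0.69) and AT5G57655 by 0.32 (-0.16 to 0.79). The interval of AT2G20670 was the widest of all.

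Relatives of the 10 genes by protein family did not share one response. Of 19 listed, 8 had a probe set of their own and 7 were tested. At 4 h in the line 4 were lower and 1 was higher than in the uninduced line, where 16.8% of all tested probe sets were lower. The median of the 7 was -1.16, or -0.70 without 4 h replicate 1. In the aluminium-induced family, AILP1 went from 5934 ± 486 (SD, n = 2) in the uninduced line to 4211 ± 823 at 1 h and 1745 ± 86.5 at 4 h, and was 1760 ± 99.8 in wild type. Its differences from the uninduced line were -0.50, -1.74 and -1.73, beside -2.77, -3.28 and -2.74 for AT3G15450. AT5G43830 showed -0.64 at 1 h, -1.43 at 4 h and -1.32 for wild type. AT3G22850, of the same family, did not pass in any of the 5 comparisons and stood at -0.03 at 4 h (interval -0.48 to 0.43). The 1 h calls of AILP1 and AT5G43830 were lost in several alternatives, among them the analysis without uninduced replicate 1 (adjusted p = 0.177 and 0.228, limma).

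In the DUF506 family of AT2G20670, the called differences went opposite ways, the rise being that of a gene dim before treatment. AT2G38820 showed log2 differences of -1.59 at 1 h and -1.68 at 4 h, whereas AT2G39650 rose by 1.41 at 1 h and by 1.21 at 4 h. The uninduced signals of AT2G39650 were 88.0 and 44.7, below the 40th percentile of their arrays. It was tested only because of its treated arrays, so little can be read from its rise. AT3G07350 differed by -0.42 at 4 h in the line (adjusted p = 0.223, limma), or by -0.83 without uninduced replicate 2 (adjusted p = 0.0255), and by -2.07 in wild type, and the line at 4 h was 1.66 above wild type, with signals of 869 ± 21.6 (SD, n = 2) and 247 ± 51.5. AT3G22970 was lower at 4 h, at -1.16, a call lost without uninduced replicate 1 (adjusted p = 0.126, limma) or 4 h replicate 1 (adjusted p = 0.191).

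Of 40 other genes on the list of starvation and SnRK1-induced genes, only 3 had a probe set of their own, and all 3 were lower at 4 h in the line. That list was chosen with earlier results of these data known, so the count is a description. The call of AT3G62550 was lost without uninduced replicate 1 (-0.83, limma adjusted p = 0.0868) or 4 h replicate 2 (-0.95, limma adjusted p = 0.0657). ETFQO, which passes electrons from amino acid breakdown to the respiratory chain, differed from the uninduced line by -0.79 at 1 h, -1.56 at 4 h and -1.48 for wild type. ALDH6B2, an enzyme of valine breakdown, differed by -0.69, -1.50 and -1.19. AT3G62550, a universal stress protein, had signals of 4322 ± 1607 (SD, n = 2) in the uninduced line, 1015 ± 418 at 1 h, 1807 ± 463 at 4 h and 4524 ± 1698 for wild type. In wild type it differed from the uninduced line by 0.06 (interval -0.56 to 0.69), where all 10 genes described above were down. Its difference between the line and wild type was -1.27 (limma adjusted p = 0.0127), a call lost without 4 h replicate 2 (0.174), without wild-type replicate 2 (0.254) or without the filter on low values (0.0719).

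Listed genes of pathways that starvation switches on were mostly lower as well. Their lists were chosen with earlier results of these data known, so the counts are a description. At 4 h in the line, 16.8% of all tested probe sets were lower. Of 7 tested genes of amino acid breakdown, a list that also holds ETFQO and ALDH6B2, 6 were lower at 4 h and 1 was higher. The largest fall was that of MCCA, a subunit of the leucine-degrading methylcrotonyl-CoA carboxylase, at -4.20. IVD, an earlier enzyme of leucine breakdown, and MCCB, the partner subunit of MCCA, stood at -1.94 and -1.86. AT1G50110, a branched-chain aminotransferase, was higher by 1.33. Of 9 tested autophagy genes, 6 were lower, led by the ubiquitin-like autophagosome proteins ATG8E (-2.51) and ATG8F (-2.27). ATG8D was higher by 0.47 (limma adjusted p = 0.0474), a call lost in 9 of 14 alternatives. No sugar-induced gene of the 2 tested passed in any comparison (limma). Their 4 h intervals in the line were wide, from -0.88 to 0.71 for DFR and from -0.36 to 1.14 for CHIL, so little can be read from this. In wild type CHIL differed by 0.66, or by 1.20 without uninduced replicate 1.

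The low-oxygen list, which shares AT1G33055 and AT4G27450 with the 10 genes, split in both directions. Among all 15026 tested probe sets, 16.8% were lower at 4 h in the line and 5354 were called in either direction. Of 13 other tested genes on the list 7 were lower and 4 were higher at 4 h in the line, with a median of -0.84. Without uninduced replicate 1 these were 4 lower and 3 higher of 11 tested (median -0.54), and without uninduced replicate 2 they were 4 and 4 of 11 (median -0.41). AT1G19530 (-3.19) and AT4G10270 (-2.73) fell with the 10 genes. AT2G41730 (3.96) rose, as did PDC2 (2.31), a pyruvate decarboxylase of alcoholic fermentation, and in wild type these differed by 3.80 and 2.78. The probe set of AT2G41730 is of a type that can cross-hybridise. AT4G24110 rose by 2.61 in the line but differed by 0.10 in wild type (interval -0.52 to 0.71). Its signals were 117 and 46.3 in the uninduced line and 76.2 and 94.0 in wild type. Both wild-type values are below the 40th percentile of their arrays, so little can be read from that difference. A fall like that of AT1G33055 and AT4G27450 was found for some genes of that list and not for others.

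Other groups moved between the same arrays, and their part in the fall of the 10 genes was not tested. GIGANTEA (GI), a clock gene that peaks late in the day, was the single clock gene tested and rose at 4 h, by 1.22 on the log2 scale in the line and by 1.13 in wild type. Its signal was 473 ± 94.8 (SD, n = 2) in the uninduced line, 733 ± 59.2 at 1 h, 1155 ± 67.7 at 4 h and 1090 ± 230 for wild type. All 6 tested leaf photosynthesis genes were lower at 4 h, with a median of -0.68, and 3 were with quantile normalization, under which 1 of them changed sign. Of 4 tested root-enriched genes 3 were lower, with a median of -0.51, and 2 were in 8 of 14 alternatives. The summed signal of these 4 was 18252 and 18660 in the uninduced line, 17170 and 17192 at 1 h, 13045 and 13992 at 4 h, and 20357 and 20846 in wild type. That of the 6 photosynthesis genes was 183382 and 189494 in the uninduced line, 132987 and 158304 at 1 h, 108835 and 119918 at 4 h, and 118184 and 122522 in wild type. No gene of either list was at 0 on any array.

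**Figure D4:**
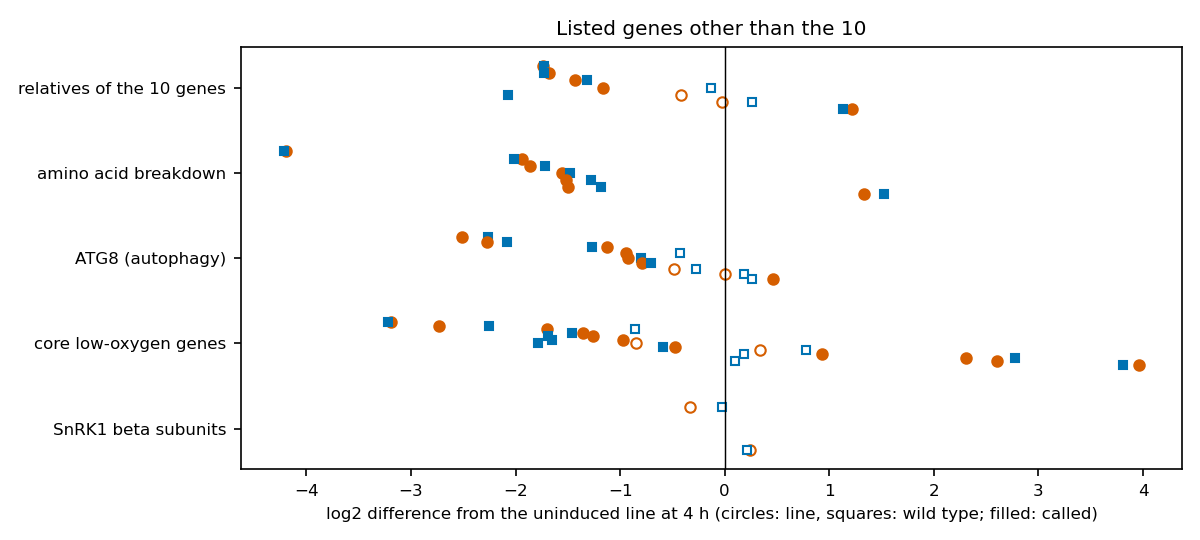
Log2 difference from the uninduced line at 4 h (x axis) of listed genes other than the 10, by list, with circles for the line, squares for wild type and filled symbols for an adjusted p under 0.05. Amino acid breakdown and autophagy genes lie mostly below 0, with MCCA at -4.20, while low-oxygen genes spread from -3.19 to 3.96.

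Across the 8 arrays, the gene whose profile came closest to the mean centred profile of the 10 was AT3G15630, with a Pearson r of 0.994. AT3G62860 (0.989), AT1G27290 (0.987), AT1G03610 (0.987) and AT1G15740 (0.984) came next, followed by AT5G16110 (0.982), AT2G25200 (0.981) and AT3G52060 (0.981). They were drawn from 292 genes with a log2 range of at least 2 over the group means, of which 51 had an r above 0.9. With 2 untreated arrays against 6 treated ones, the r reflects mainly the drop from the first to the second kind of array. Among the 10 themselves the r with this mean ran from 0.843 for ATL8 to 0.996 for AKINBETA1. Each of the 10 is part of that mean and was chosen for its fall, so a high r is built in. AT3G15630 went from 2842 ± 137 (SD, n = 2) in the uninduced line to 816 ± 41.9 at 1 h and 571 ± 8.27 at 4 h, a log2 difference of -2.23 at 4 h.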

How the data were processed

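The authors' deposited value table gives linear MAS5 intensities, 1 for each probe set on each array. The tool's name is from the submitters' processing notes and its version is not given there. The trimmed mean is the same on all 8 arrays. No detection calls came with it. The deposited instrument records, in other units, were used only for run order and comments. Groups were taken from the labels. Of the single-gene probe sets, 13436 matched the RefSeq table of TAIR10.1, used for names, and 77 did not; 503 probe sets list several genes and 8730 were unnamed here.

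A probe set was tested (15026 were) if at least 2 arrays had it above their 40th percentile, with limma 3.58.1 in R 4.3.3 (eBayes, trend over mean signal) on log2(intensity + 45). All 8 arrays entered 1 fit, with 4 residual and 11.2 prior degrees of freedom. P-values were Benjamini-Hochberg adjusted over all tested, with a threshold of 0.05, and the fit was tested on simulated data. Intervals come from the moderated t distribution. The members and lists were chosen with earlier results of these data known. Named were the 10 genes, their tested relatives and SnRK1 subunits, the leading called genes of each list, and the 8 genes with the most similar profile over the arrays. Alternatives changed the pseudocount, filter, normalization, samples fitted and replicate block, or left out each array.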

Additional observations from a re-analysis of the deposited data

How the results depend on the processing

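The counts of probe sets called depended on single arrays. With 1 array left out in turn, the number ranged from 3946 to 5562 for 4 h against the uninduced line (5354 with all arrays), from 1728 to 2435 for 1 h (2504), from 2947 to 4893 for wild type (4679), from 498 to 1113 for the line against wild type at 4 h (996) and from 1835 to 3017 for 4 h against 1 h (2957). The lowest values of the last 3 came without wild-type replicate 1, wild-type replicate 2 and 4 h replicate 2. Of the 10 genes, 8 to 10 were then lower at 4 h, 7 to 9 at 1 h and 8 to 10 in wild type than in the uninduced line. For 4 h against 1 h, 2 to 4 were lower (2 without 1 h replicate 1) and 0 to 1 higher, and for the line against wild type 0 to 1 were lower and 0 to 1 higher. The single gene above wild type, AT4G10910, lost its call with a pseudocount of 180 and with no filter, which left 0. With only both groups fitted it was not tested, and none of the genes tested was called (0). With the replicate number as a block, AT4G10910 was higher at 4 h than at 1 h (0.78, limma adjusted p = 0.0393), which made 1 of 10 in place of 0. The labels do not say that a number marks a shared batch, and the deviations of same-numbered arrays correlated at -0.064 to 0.033. With 1 array left out, the difference between the line and wild type changed sign for AKINBETA1 (-0.20 to 0.13, and 0.03 without wild-type replicate 2), AT4G27450 (-0.61 to 0.20) and AT2G20670 (-0.33 to 0.053), as did that of AT2G20670 between 4 h and 1 h (-0.22 to 1.50), and the cause was not tested. AT1G33055 was not tested where an uninduced array was left out, nor in fits of 2 groups without the uninduced line, since fewer arrays then passed the filter. Signals below the 25th percentile, at which AT1G33055 and in part AT4G10910 lay after treatment, limit what can be said of their depth.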
